A study of Mus musculus with 2 samples.

Results

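Interferon regulatory factors are transcription factors that switch on interferon genes and the genes that interferons induce. They were followed here in mouse soft-tissue sarcoma cells with and without a hairpin against the circular RNA circCsnk1g3. The genes were taken by symbol (Irf1, Irf2, Irf3, Irf4, Irf5, Irf7, Irf8 and Irf9), and all 8 had a row among the 25509 genes of the count table. A gene was tested if either library held at least 10 counts of it, which left 6 of the 8 and 12941 of all genes. Irf4 and Irf8 fell short of this.

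The cells of both groups were of the C57BL/6 strain, p53-/- and Ccne1+. They had been made from mesenchymal stem cells by loss of p53 and overexpression of Ccne1 (cyclin E1) from a retrovirus, passed through subcutaneous tumors and then through lungs of recipient mice, and taken out of the lung foci again. One library came from cells transduced with a lentiviral hairpin against the backsplice junction of circCsnk1g3 (shcircCsnk1g3) and 1 from cells with the control hairpin (shCTR). The counts of Csnk1g3 were 2159 and 2411 in this order, and those of Trp53, which encodes p53, were 3841 and 4334. Ccne1 had 893 and 963 counts, or 22.8 CPM (counts per 1e6 after TMM scaling) in each library. The libraries were of polyadenylated RNA, so the circular RNA itself was not measured, and these Trp53 counts do not show whether protein was made. Of 10 mesenchymal marker genes, 9 were tested and Vim (vimentin) alone had 225330 and 282350 counts, while Thy1 was at the floor with 0 and 1. The counting intervals of the log2 fold change (shcircCsnk1g3 over shCTR, defined below) lay above 0 for 2 of the 9 and below for 5, beside 26.9% and 28.2% of all genes tested, with the largest differences in Col3a1 (0.37, 0.35 to 0.39), a fibrillar collagen, and Pdgfra (-0.31, -0.35 to -0.27), a growth factor receptor. Of 5 endothelial markers, 3 were at the floor in both libraries, with a summed level of 0.434 CPM for shcircCsnk1g3 and 0.568 CPM for shCTR, and so were 5 of 6 markers of lung epithelium (summed level 0.0255 and 0.142 CPM). In such bulk RNA, fewer cells of a type and less RNA per cell cannot be told apart. The totals were 38792143 counts for shcircCsnk1g3 and 42709996 for shCTR. With 1 library in each group there was no replicate check and no test between conditions.

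The factors share an N-terminal DNA-binding domain that reads repeats of GAAA, the core of the interferon-stimulated response element. Irf3 and Irf7 wait in the cytoplasm and are phosphorylated by the kinases Tbk1 and Ikbke after viral RNA or DNA is sensed, which leads to interferon transcription. Irf9 works with Stat2 in ISGF3, the complex that carries the signal of the type I interferon receptor to the nucleus. Irf1 is itself induced by interferon gamma and activates antigen presentation genes, and Irf2 binds the same sites and mostly opposes it. Irf5 serves signals from Toll-like receptors, and Irf4 and Irf8 act in lymphoid and myeloid cells.

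In the circCsnk1g3-silenced library, the levels of Irf7 and Irf9 exceeded those of the control more than 2-fold and that of Irf1 was 1.35-fold higher. Irf3, the constitutive member, differed by less than the counting error. Irf2 was the only tested member whose counting interval lay below 0, at 0.894 of its control level. Levels are in CPM, the count as a part of all counts in the library after TMM scaling, times 1e6. Log2 fold changes are shcircCsnk1g3 over shCTR and include a prior count of 2, by which those of weakly expressed genes are drawn toward 0. Ranges in parentheses are 95% exact intervals (Clopper-Pearson) for the count of one library relative to the other. They cover counting error only, and leave out the spread between cultures.

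Irf7 (ENSMUSG00000025498, chromosome 7, 141262706 to 141266481, minus strand, GRCm38) is the factor that amplifies interferon transcription once a first wave has been made. Its count was 336 with shcircCsnk1g3 against 147 with shCTR, or 8.57 and 3.48 CPM. Its log2 fold change of 1.29 (1.02 to 1.59) was number 172 from the top among all 12941 genes tested, and number 35 among the 10662 of them whose counts summed to 200 or more.

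Irf9 (ENSMUSG00000002325, chromosome 14, 55603571 to 55610030, plus strand) had 2196 counts against 1073, or 56.0 and 25.4 CPM. Its log2 fold change was 1.14 (1.03 to 1.25), number 221 from the top among all genes tested and number 49 among those 10662 genes. With its higher counts, Irf9 had a narrower interval than Irf7, and both intervals lay wholly above a 2-fold change.

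Irf1 (ENSMUSG00000018899, chromosome 11, 53770014 to 53778374, plus strand) had 2093 counts against 1669 in the control, 53.4 and 39.5 CPM. The log2 fold change was 0.43 (0.34 to 0.53), larger than the counting error but under 2-fold. Its counterpart Irf2 (ENSMUSG00000031627, chromosome 8, 46739732 to 46847458, plus strand) went the other way, with 1122 counts against 1353, 28.6 and 32.0 CPM. The log2 fold change of Irf2 was -0.16 (-0.28 to -0.05).

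Irf3 (ENSMUSG00000003184, chromosome 7, 44997648 to 45002848, plus strand) had 1642 and 1687 counts, 41.9 and 39.9 CPM. Its log2 fold change was 0.07 (-0.03 to 0.17), and on the linear scale the interval ended at 1.12-fold. Irf5 (ENSMUSG00000029771, chromosome 6, 29526625 to 29541871, plus strand) was low, with 70 and 64 counts or 1.79 and 1.51 CPM. Its log2 fold change was 0.23 (-0.27 to 0.75), an interval that holds 0 and ends at 1.68-fold on the linear scale.

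Irf4 (ENSMUSG00000021356, chromosome 13, 30749226 to 30766976) had 3 counts with shcircCsnk1g3 and 0 with shCTR. Irf8 (ENSMUSG00000041515, chromosome 8, 120736358 to 120756694) had 2 and 0. Both lay at or under 3 counts in each library, which was taken as the floor and amounts to 0.0765 CPM for shcircCsnk1g3 and 0.0710 CPM for shCTR, and no fold change is given. Partners of Irf4 and Irf8 in leukocytes were as scarce, with Spi1 (PU.1), Ikzf1 and Ikzf3 at 0 in both libraries. An exception was Batf, a partner of Irf4 in lymphocytes, with 110 counts against 67 (log2 fold change 0.80, 0.37 to 1.28). Of 13 leukocyte markers, 9 were at the floor in both libraries, including Ptprc (CD45) with 1 and 0 counts and Cd3e, Adgre1 and Lyz2 with 0. The whole list summed to 50.2 CPM for shcircCsnk1g3 and 46.7 CPM for shCTR, nearly all of it from Cd14 (1844 and 1774 counts). Cd68, a marker of macrophages, went the other way with 87 counts against 155 (-0.71, -1.12 to -0.34), and Cd74 had 33 and 37. The part of these markers in the levels of the factors was not tested.

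Of the 6 tested members, 2 (Irf7 and Irf9) were at least 2-fold higher, beside 2.13% of all genes tested, and 0 were at least 2-fold lower, beside 2.55%. The intervals of 3 members lay above 0, beside 26.9% of all genes, and that of 1 lay below, beside 28.2%. An interval off 0 was thus common between these libraries, whereas a 2-fold difference was not. Among the 6207 genes within the members' own range of mean CPM, 1.11% were at least 2-fold higher. The median log2 fold change was 0.33 over the 6 tested members, 0.00 over all genes and 0.02 over the genes of like level. No Irf4 or Irf8 value enters these counts.

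**Figure D1:**
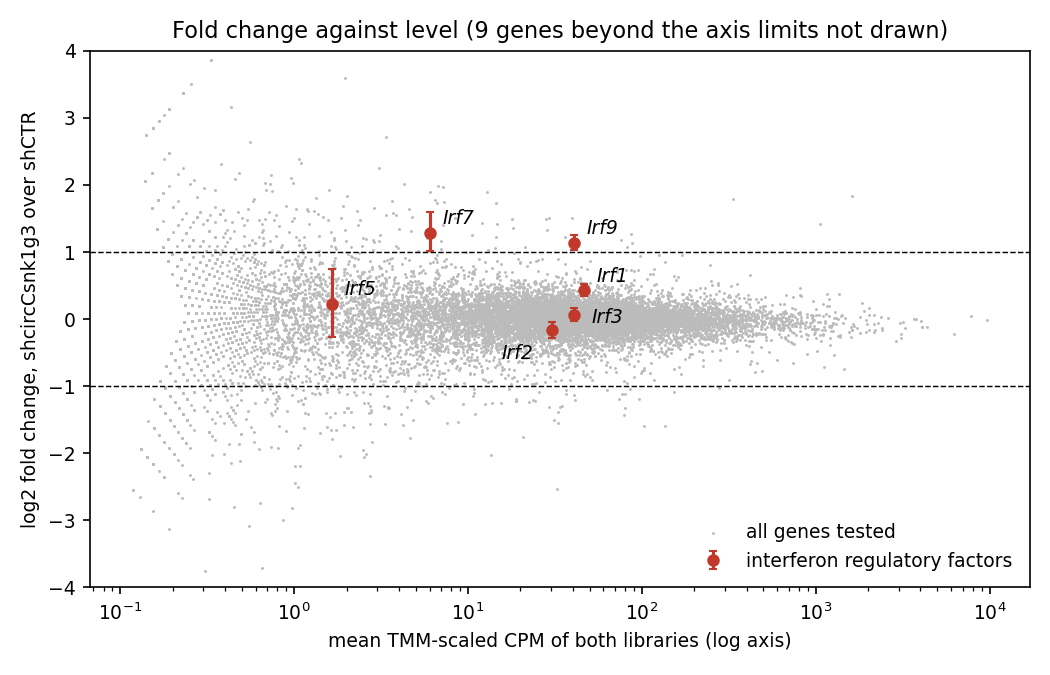
Log2 fold change (shcircCsnk1g3 over shCTR) against mean TMM-scaled CPM on a log axis for all genes tested (grey) and the 6 tested factors (red, with 95% counting intervals). Dashed lines mark a 2-fold change in either direction. Irf7 at 1.29 and Irf9 at 1.14 sit above the upper line, outside most of the cloud at their level, whereas Irf1, Irf2, Irf3 and Irf5 sit between the lines.

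To compare the factors with one another, CPM was divided by the length of the merged exons of each gene. In the control library the order was Irf3 with 11.6 CPM per kb, Irf1 with 9.94, Irf9 with 4.72, Irf2 with 4.33, Irf7 with 0.921 and Irf5 with 0.521. In the shcircCsnk1g3 library Irf1 came first with 13.4 CPM per kb, before Irf3 with 12.2, Irf9 with 10.4, Irf2 with 3.87, Irf7 with 2.27 and Irf5 with 0.614. Each of these levels differed from the next by more than counting error, with the smallest margin between Irf9 and Irf2 in the control (ratio interval 1.004 to 1.18). Irf4 and Irf8 at the bottom could not be ordered.

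By merged exon length, Irf1 and Irf3 thus changed places. Irf9 kept the place above Irf2, from which its distance was larger in the silenced cells (ratio interval 2.50 to 2.89). Of the summed level per length of all 8 factors, Irf9 made up 14.7% with shCTR and 24.3% with shcircCsnk1g3. The share of Irf3 was 36.2% and 28.4% in the same order, that of Irf2 13.5% and 9.05%, and that of Irf1 31.0% and 31.4%. Irf7 stayed a small part at 2.88% and 5.31%. With the longest annotated transcript as length, the order of the 6 factors in the silenced cells was as above, but in the control Irf2 with 8.08 CPM per kb stood above Irf9 with 6.56, and Irf3 with 19.7 and Irf1 with 18.5 did not differ beyond counting error (ratio interval 0.993 to 1.14). The order of both pairs in the control thus depends on the length used. The shares were computed with merged exon length only.

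**Figure D2:**
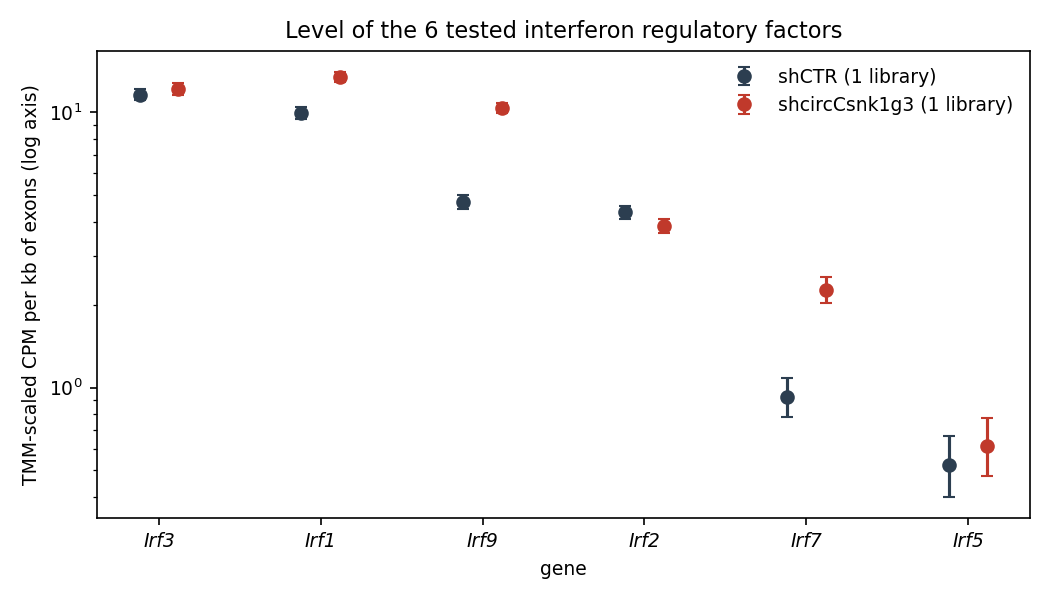
TMM-scaled CPM per kb of merged exons, on a log axis, of the 6 tested factors in the shCTR library (dark) and the shcircCsnk1g3 library (red). Bars are 95% exact Poisson intervals of the counts. The points of Irf9 and Irf7 are the farthest apart, from 4.72 to 10.4 and from 0.921 to 2.27, and those of Irf3, Irf2 and Irf5 are close together.

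Ratios of a pair of genes within a library do not depend on how the libraries are scaled. For 5 pairs chosen after the values were seen, the ratio in the silenced library was divided by that in the control. The count ratio of the activator Irf1 to the opposing Irf2 was 1.87 after silencing against 1.23, a 1.51-fold difference (exact conditional interval 1.36 to 1.68). The ratio of the inducible Irf7 to the constitutive Irf3 was 0.205 against 0.0871, a 2.35-fold difference (1.90 to 2.90).

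Between these 2 libraries, the counts of Irf9 and its partner Stat2 did not differ by the same amount, as far as counting error goes. Stat2 had 1290 counts against 756 (log2 fold change 0.88, 0.75 to 1.01). Irf9 over Stat2 was 1.199-fold higher with shcircCsnk1g3 than with shCTR (1.07 to 1.35). Whether this ratio would differ between further cultures was not tested. Irf7 over Irf9 was 1.12 times its control value (0.904 to 1.38), an interval that holds 1. That of Irf5 over Irf3 was wider (1.12, 0.783 to 1.61).

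**Figure D3:**
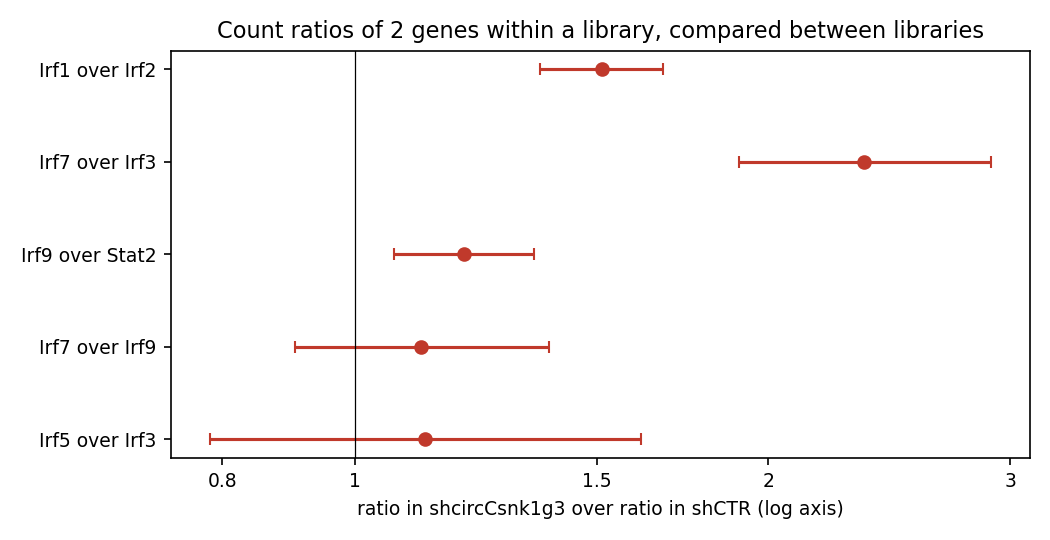
For 5 pairs of genes, the ratio of their counts in the shcircCsnk1g3 library divided by the same ratio in the shCTR library, on a log axis with 95% exact conditional intervals. Irf7 over Irf3 lies farthest to the right at 2.35, followed by Irf1 over Irf2 at 1.51. The intervals of Irf7 over Irf9 and Irf5 over Irf3 hold 1.

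The start regions of the factors were searched in RefSeq windows of 250 bases before to 50 after each annotated start (GRCm38.p6), of which the 8 genes have 11. The motifs were the interferon-stimulated response element, as GAAA, any 2 bases and GAAA again on either strand, the interferon gamma-activated element GAS as TTCNNNGAA, which reads the same on both strands, and the NF-kappaB consensus on either strand. A match is only a description of the letters. The response element was found in 1 of the 11 windows, that of Irf2, beside 3.44% of all 32851 windows. Of the 16 listed ISGF3 target genes with a window, 9 held it, beside 3.99% of all genes with a window, but that list was made of genes known for this element. GAS was found in 3 of the 11 windows (Irf1, Irf2 and Irf8), beside 8.30% of all, and the NF-kappaB consensus in 2 (Irf1 and Irf2), beside 8.46%. The windows of Irf7 and Irf9, the members with the largest differences, held none of these letters, nor did those of Irf3, Irf4 and Irf5. The start of Irf9 in the annotation used above (55603571) lies before its first window, which begins at 55603735, and was not searched. A window without a match does not show that the gene lacks an element, since only 9 of the 16 listed targets matched.

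GAS and the NF-kappaB consensus were thus found at both genes of the opposing pair, and the response element at Irf2 but not at Irf1. The stretches below show the GAS match of each, the response element of Irf2 and the NF-kappaB match of Irf1, with matches in capitals, and for comparison the element in Stat2, the partner of Irf9, and in Isg15, a classical target of ISGF3. The Irf1 stretch (chr11:53769904-53770013, plus strand) holds GAS 90 bases and the NF-kappaB consensus 13 bases before the start. The Irf2 stretch (chr8:46739495-46739545, plus strand) holds the response element 241 bases and GAS 224 bases before the start, with no overlap. The NF-kappaB match of Irf2, 17 bases before the start, lies outside the printed stretch. Those of Stat2 (chr10:128270263-128270298, plus strand) and Isg15 (chr4:156200868-156200903, minus strand) hold 1 match and 3 overlapping matches of the response element.
Irf1: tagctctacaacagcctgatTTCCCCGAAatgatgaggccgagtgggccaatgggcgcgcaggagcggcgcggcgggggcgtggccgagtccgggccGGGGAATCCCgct
Irf2: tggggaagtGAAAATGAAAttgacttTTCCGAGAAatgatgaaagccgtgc
Stat2: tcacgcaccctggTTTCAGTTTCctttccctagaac
Isg15: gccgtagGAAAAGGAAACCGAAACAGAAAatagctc

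The nearest tested gene on each side of a factor in the annotation gives the change of its surroundings. Next to Irf7 lie Phrf1 (log2 fold change 0.02, -0.04 to 0.07), which overlaps its end by 45 bases on the other strand, and Deaf1 (0.14, 0.01 to 0.28). Both were far from the 1.29 of Irf7. Next to Irf9 lie Rnf31, a subunit of the linear ubiquitin ligase complex, with 1737 counts against 1444 (0.37, 0.27 to 0.48), and Ipo4 (-0.25, -0.29 to -0.20). Rnf31 overlaps the annotated start of Irf9 by 123 bases on the same strand, so reads from there can be assigned to either gene.

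Rad50 and Slc22a5 beside Irf1 had log2 fold changes of 0.14 (0.07 to 0.21) and 0.01 (-0.25 to 0.28), under the 0.43 of Irf1. Irf3 and Bcl2l12 overlap by 1065 bases at their starts and are read in opposite directions. Bcl2l12 had 376 and 386 counts, and its log2 fold change (0.07, -0.14 to 0.28) was the same as Irf3 to 2 decimals. Irf5 and its neighbors Atp6v1f and Tnpo3 had intervals that held 0. Beside Irf2, Trappc11 had a log2 fold change of -0.08 (-0.15 to -0.02), and the low Gm16675 had 28 and 32 counts.

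**Figure D4:**
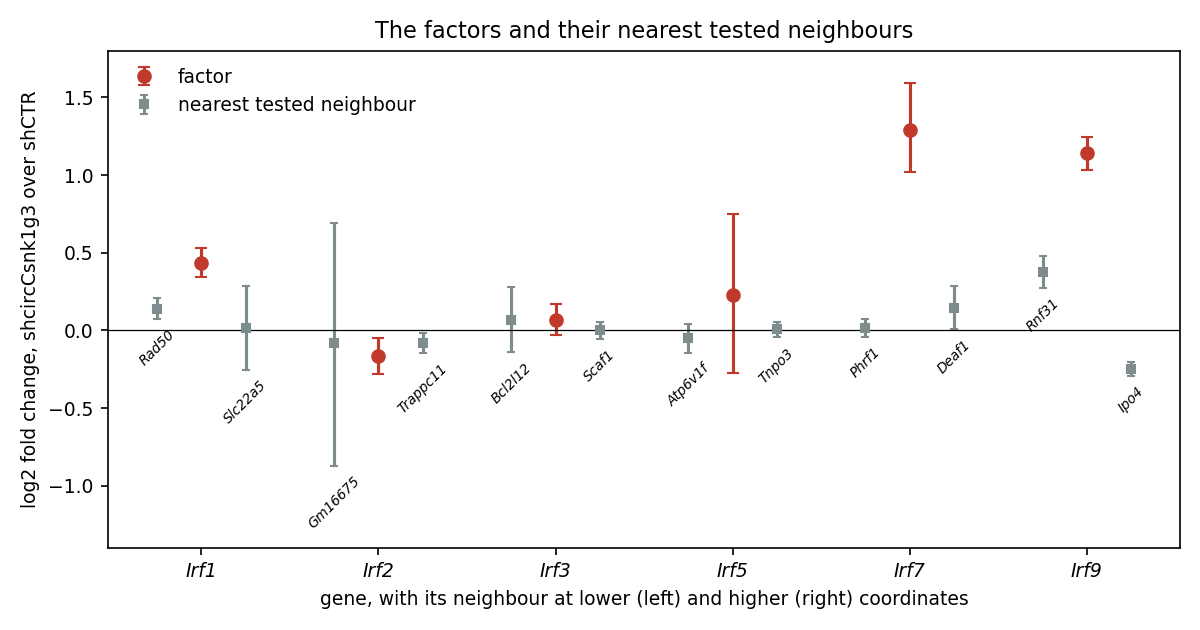
Log2 fold change of each tested factor (red circles) and of the nearest tested gene at lower (left) and higher (right) coordinates (grey squares), with 95% counting intervals. Irf7 at 1.29 and Irf9 at 1.14 stand above both of their neighbors, whose values run from -0.25 to 0.37. Irf3 lies among its neighbors.

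The genes that act before and after the factors were read from lists, each beside the median of 0.00 over all genes. Their counts stand beside the same shares of all genes as above, 2.13% at least 2-fold higher, 2.55% at least 2-fold lower, 26.9% with an interval above 0 and 28.2% with one below. Of 9 listed sensors, 7 were tested, 6 were higher with intervals above 0 (26.9% of all genes) and the median was 0.40. All sense nucleic acid except Tlr4, a sensor of bacterial lipopolysaccharide that is among those 6. Tlr4 had 2263 and 2262 counts (0.11, 0.02 to 0.19). Zbp1, a sensor of Z-form nucleic acid, was the only one at least 2-fold higher (2.13% of all genes), with 197 counts against 71 (1.55, 1.18 to 1.99). Ddx58, which encodes the RNA sensor RIG-I, had 1806 against 1100 (0.82, 0.71 to 0.93). Mb21d1, which encodes the DNA sensor cGAS, had 1026 against 835 (0.40, 0.27 to 0.54). Tlr3, a sensor of double-stranded RNA in endosomes, had 49 and 56 counts and an interval that held 0.

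Of 17 adaptors, ubiquitin ligases and kinases that activate the factors, 16 were tested, 0 were at least 2-fold higher or lower, the intervals of 4 lay above and of 4 below 0, near the shares of all genes (26.9% and 28.2%), and the median was 0.03. Tbk1 had 1324 and 1369 counts (0.06, -0.05 to 0.17) and Ikbke 397 and 393 (0.12, -0.08 to 0.33). The largest differences were those of Trim25, the ubiquitin ligase of RIG-I, with 3499 counts against 3035 (0.31, 0.24 to 0.38), and of Tbkbp1, an adaptor of Tbk1, with 184 against 336 (-0.76, -1.03 to -0.50).

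Among 10 genes of the interferon receptors, Janus kinases and STAT partners, all tested, 0 were at least 2-fold higher or lower and the median was 0.15. Stat2 had the largest difference of the list. Ifnar1, a chain of the type I interferon receptor, had 2289 counts against 2675 (-0.12, -0.20 to -0.04). Ifngr1 and Ifngr2, the receptor of interferon gamma, had intervals that held 0.

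Of 12 co-repressors and brakes, all tested, the intervals of 4 lay above and of 4 below 0, not far from the shares of all genes (26.9% and 28.2%), and the median was 0.02. At least 2-fold higher were 2 of the 12 (2.13% of all genes) and 0 were lower (2.55%). Usp18, which removes ISG15 and blocks the interferon receptor, had 376 counts against 108 (1.89, 1.59 to 2.23), and Trim21, a ubiquitin ligase that acts on several of the factors, had 138 against 52 (1.48, 1.05 to 2.005). Socs1, another inhibitor of interferon signaling, was lower, with 326 counts against 482 (-0.45, -0.66 to -0.25). Among the co-repressors named after Irf2, Irf2bp1 had 1247 counts against 1626 (-0.27, -0.38 to -0.17), whereas the intervals of Irf2bp2 and Irf2bpl held 0.

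Transcripts of interferon genes were below what these libraries could resolve. The list holds Ifnb1 and the Ifna genes, which Irf3 and Irf7 drive, and others that are not their usual targets, such as Ifne and Ifng, the interferon gamma of lymphocytes. Of 20 listed, all 20 were at the floor in both libraries, 19 of them at 0, and Ifnb1 had 1 count in each.

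Of 22 listed targets of ISGF3, 20 were in the table and tested, and 19 of them were higher. The intervals of 18 lay above 0 (26.9% of all genes), 12 were at least 2-fold higher (2.13% of all genes), and the median was 1.28. Ifi44 had 447 counts against 121 (1.97, 1.70 to 2.29), Rtp4 had 791 against 228 (1.89, 1.69 to 2.12) and Xaf1, a proapoptotic factor, had 877 against 282 (1.74, 1.55 to 1.94). The other 9 past 2-fold were Isg15, Ifit1, Ifit3, Ifit3b, Mx1, Oas2, Oas3, Oasl2 and Parp14, from 1.07 for Mx1 on 45 counts against 22 to 2.10 for Ifit3b on 62 against 14. Ifit2 was the exception, with 613 counts against 705 (-0.09, -0.25 to 0.06).

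Of 19 known targets of Irf1, 16 were tested, and 11 were higher and 5 lower. The intervals of 7 lay above 0 (26.9% of all genes) and of 3 below (28.2%), 2 were at least 2-fold higher (2.13% of all genes) and 1 lower (2.55%), and the median was 0.20. Without the filter on low counts the median over all 19 was 0.09. Gbp2, a guanylate-binding protein, had 398 counts against 128 (1.73, 1.45 to 2.04) and Nos2, the inducible nitric oxide synthase, had 133 against 53 (1.40, 0.97 to 1.92). Cxcl10, a chemokine, had 1226 against 804 (0.71, 0.59 to 0.85). Lower than in the control were Ccl5, also a chemokine, with 618 counts against 787 (-0.24, -0.40 to -0.09) and Vcam1, an adhesion molecule, with 3574 against 4217 (-0.13, -0.20 to -0.07). Il15ra was at least 2-fold lower on few counts, 8 against 21 (-1.11, -2.67 to -0.05). Nlrc5, the transactivator of MHC class I genes, had 2093 counts against 1847 (0.29, 0.20 to 0.38), and Tap1, the peptide transporter, had 221 against 195 (0.29, 0.00 to 0.57). B2m, the light chain of MHC class I, was level at 21871 and 23498 counts (0.00, -0.02 to 0.03). Whether the 2 lists of targets differ was not tested.

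**Figure D5:**
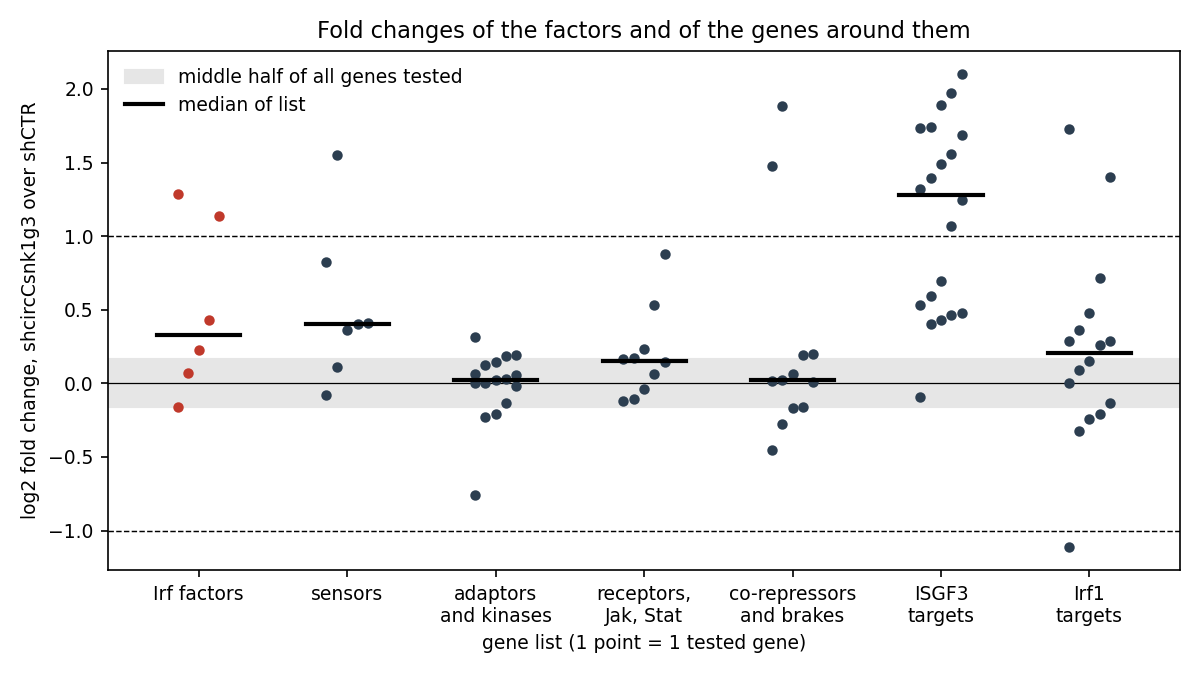
Log2 fold change (shcircCsnk1g3 over shCTR) of each tested gene in the lists named on the axis, with the median of each list as a bar. The grey band lies between the quartiles of all genes tested (-0.16 to 0.16) and dashed lines mark a 2-fold change. The median of the ISGF3 targets (1.28) lies above the upper line, while those of the adaptors and kinases (0.03) and of the co-repressors and brakes (0.02) lie within the band.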

How the data were processed

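Poly(A) RNA of 2 cultures was sequenced from stranded libraries. Alignment by the authors used STAR (GRCm38) and RSEM gave an estimated count for each gene. The deposited counts are these estimated counts as whole numbers, not normalized. Whether counting used the strand is not given in the sources used here. RSEM divides reads that match several genes, so that overlapping genes share them. A further deposited table holds a TMM-scaled signal for 11624 genes, made by the authors with edgeR, and served as an alternative. The 92 spike-in rows, all 0, were left out.

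A gene was tested if either library held 10 counts of it, and TMM factors came from those genes with edgeR 4.0.16 under R 4.3.3. Log2 fold changes used a prior count of 2. With 1 library per group edgeR has no estimate of spread, so no test was made, and called means at least 2-fold. Everything else was done in python 3.11.15 with scipy 1.17.1. Positions and exon lengths are from GENCODE M21 (GRCm38), in which 25251 of 25509 gene identifiers were found, and start regions from RefSeq. The members and lists were chosen with earlier results of these data known. Named genes are the members, list genes at least 2-fold changed or else the 2 with the largest change among genes with at least 200 summed counts, the nearest tested neighbors, and the 3 genes closest in log2 fold change to each called member. Further genes of the lists were named after their values were seen. The steps were tested on simulated data. Results for some genes are not reported here.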

Additional observations from a re-analysis of the deposited data

How the results depend on the processing

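No paired analysis was possible because each group held 1 library, and for the same reason no replicate could be left out. The alternatives were DESeq2 1.42.0 size factors, total counts, a prior count of 0.5 or 10, the values of the TMM-scaled table, a minimum of 50 or 200 summed counts or none at all, and a threshold of 1.5-fold or 4-fold. The log2 fold change of Irf7 ran from 1.24 to 1.32, that of Irf9 from 1.13 to 1.17, that of Irf1 from 0.43 to 0.46 and that of Irf2 from -0.16 to -0.13, and all 47 such values of the 6 tested factors stayed inside their counting intervals. The 2 factors at least 2-fold higher became 4 without the count filter, which adds Irf4 and Irf8 with at most 3 counts. At a threshold of 1.5-fold there were 2 higher, beside 5.39% of all genes tested. At 4-fold there were 0, beside 0.379%. Without the filter the median over all 8 factors was 0.73 in place of 0.33. Of 55 medians of the lists, 54 stayed between the median lower and median upper bound of the intervals of the list. The exception was the partners of Irf4 and Irf8, of which Batf alone was tested at 0.80, and whose median without the filter was -0.57. The share of all genes past 2-fold upward was 2.13%, and it was 1.16% at a prior count of 10, 0.921% in the TMM-scaled table, 4.55% without the filter, and 1.11% and 0.563% with the minimums of 50 and 200. With the longest transcript as length, 11 of 12 levels per kb left their counting intervals. For Irf5, with 70 and 64 counts, depth could hide a difference within its interval.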

Other observations

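Among 1732 genes with a mean CPM within 2-fold of that of Irf7, the 3 closest to it in log2 fold change were Ifi27l2a with 262 counts against 112 (1.32, 1.01 to 1.67), Trim12c with 173 against 77 (1.25, 0.88 to 1.68) and Parp14 with 580 against 262 (1.25, 1.04 to 1.47). Among 4582 genes of like level, the 3 closest to Irf9 were Scube3 with 4128 counts against 1967 (1.18, 1.10 to 1.26), Cldn1 with 1133 against 580 (1.07, 0.93 to 1.22) and Atf3 with 1978 against 911 (1.22, 1.11 to 1.34). This likeness rests on a single contrast between 2 libraries.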
